A study of Mus musculus with 6 samples.

Results

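The *Serpina1* cluster of the mouse comprises the 5 genes *Serpina1a*, *Serpina1b*, *Serpina1c*, *Serpina1d* and *Serpina1e*, which encode α1-antitrypsin and its close relatives. They were chosen by symbol out of the 34866 genes of the count table, because *Serpina1e* differed between the adenoma models compared here. The difference between these models is therefore given for the members as a description, without a test. Adenomas were excised from the intestines of C57BL/6J mice aged between 100 and 120 days that were heterozygous for a germline *Apc* mutation, either *Apc1322T/+* or *ApcMin/+*, and RNA from 3 samples of each genotype was sequenced. Apc1322T is a truncated protein that retains β-catenin binding sites which the shorter ApcMin truncation lacks. The labels name no other allele or agent and no sex, and they do not say which segment of the intestine the adenomas came from. According to the study's methods, a sample was typically a pool of several extractions from the same mouse, so that the spread between libraries reflects differences between mice together with those between adenomas.

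α1-antitrypsin is a serine protease inhibitor that hepatocytes secrete into the plasma in large amounts, and whose best known target is the elastase of neutrophils. Epithelial cells of the intestine and macrophages also make it. A serpin presents an exposed stretch, the reactive centre loop, as bait: the protease cleaves this loop and is trapped in a covalent complex, and the residues of the loop determine which proteases are caught. Humans have *SERPINA1* as their only gene for α1-antitrypsin, whereas the mouse ancestor's gene was duplicated repeatedly, and the loops of the copies diverged.

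The libraries held between 23132461 and 33518324 estimated counts, and 3 counts, taken as the smallest signal that these depths can show, corresponded to between 0.0838 and 0.143 CPM, the counts scaled to the library total. Epithelial genes were abundant in every library, for example *Krt20*, a keratin of differentiated enterocytes, with between 39941 and 69422 counts, and the goblet cell mucin *Muc2* with between 17949 and 41608 counts. The *Apc* alleles cannot be read from counts per gene, so the genotypes were taken from the labels. Library 1 of *ApcMin* stood apart, since it held 2679 counts of the pancreatic protease gene *Ctrb1* (between 2 and 16 counts in the others) and the highest summed level of macrophage markers. The summed *Serpina1* level is therefore also given without it.

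In the GENCODE M21 annotation of GRCm38, the members lie on the minus strand of chromosome 12 between bases 103728156 and 103958975, a span of 230.82 kb. In order of rising coordinate they are *Serpina1b* (chr12:103728156-103830373), *Serpina1d* (chr12:103763594-103773592), *Serpina1a* (chr12:103853589-103863562), *Serpina1c* (chr12:103894926-103904887) and *Serpina1e* (chr12:103946931-103958975). The annotated interval of *Serpina1b* extends over *Serpina1d* and over the pseudogene *Gm8893*. Each member has a coding sequence of 1239 bases divided between 4 coding exons. Over the 10 pairs of members, these coding sequences were between 96.3% identical (*Serpina1b* and *Serpina1e*) and 98.5% identical (*Serpina1a* and *Serpina1c*), and 86 of the 1239 aligned positions differed in at least 1 member. Of the windows of 60 coding bases, that from base 1101 to base 1160 held the most of these, 18 variable positions. It lies in a single exon and encodes the reactive centre loop. The windows are shown because they are where the members are easiest to tell apart; capitals mark the positions that vary between members, and all read 5′ to 3′ along the minus strand of GRCm38.
Serpina1a: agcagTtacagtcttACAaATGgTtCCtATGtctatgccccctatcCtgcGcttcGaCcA
Serpina1b: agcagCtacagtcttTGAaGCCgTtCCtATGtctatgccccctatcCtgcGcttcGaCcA
Serpina1c: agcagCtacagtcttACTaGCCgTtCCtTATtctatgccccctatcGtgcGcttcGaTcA
Serpina1d: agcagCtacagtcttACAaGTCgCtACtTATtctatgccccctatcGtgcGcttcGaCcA
Serpina1e: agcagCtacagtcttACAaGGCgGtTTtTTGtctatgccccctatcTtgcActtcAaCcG
These windows lie at chr12:103853757-103853816 (*Serpina1a*), chr12:103728324-103728383 (*Serpina1b*), chr12:103895094-103895153 (*Serpina1c*), chr12:103763762-103763821 (*Serpina1d*) and chr12:103947100-103947159 (*Serpina1e*). Codon 377, just before the tct that all members share, was ATG in *Serpina1a* and *Serpina1b*, TAT in *Serpina1c* and *Serpina1d*, and TTG in *Serpina1e* alone. A protease cleaves the loop of antitrypsin at this place.

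How far reads can be assigned to a member depends on these differences, because the reads were single and 50 bases long. Over all annotated transcripts, the members held 5799 distinct stretches of 50 bases, of which 4610 occurred in a single member and 319 in all 5. The share of a gene's stretches found in no other gene was highest in *Serpina1b* (70.5%) and *Serpina1e* (65.4%), followed by *Serpina1d* (49.1%), *Serpina1a* (42.4%) and *Serpina1c* (25.8%). These shares also depend on how many transcripts are annotated. *Serpina1b* has 4, with 2285 stretches in all, whereas *Serpina1c* and *Serpina1d* have 1 each. *Serpina1c* overlapped most with *Serpina1a*, which held 69.4% of its stretches. Beyond each other, the members shared stretches only with *Gm8893* (704 stretches), the pseudogene within the span of the cluster, which had 0 counts in each library. Salmon, the program used by the authors, splits a read with several possible origins according to their estimated abundance, and none of the 21 member values above 0 was a whole number to within 0.01. Their sum over the 5 members was whole in 6 of 6 libraries to the same tolerance. The reads credited to the members were thus divided among these 5 genes alone, and the sum does not depend on how this was done.

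**Figure D1:**
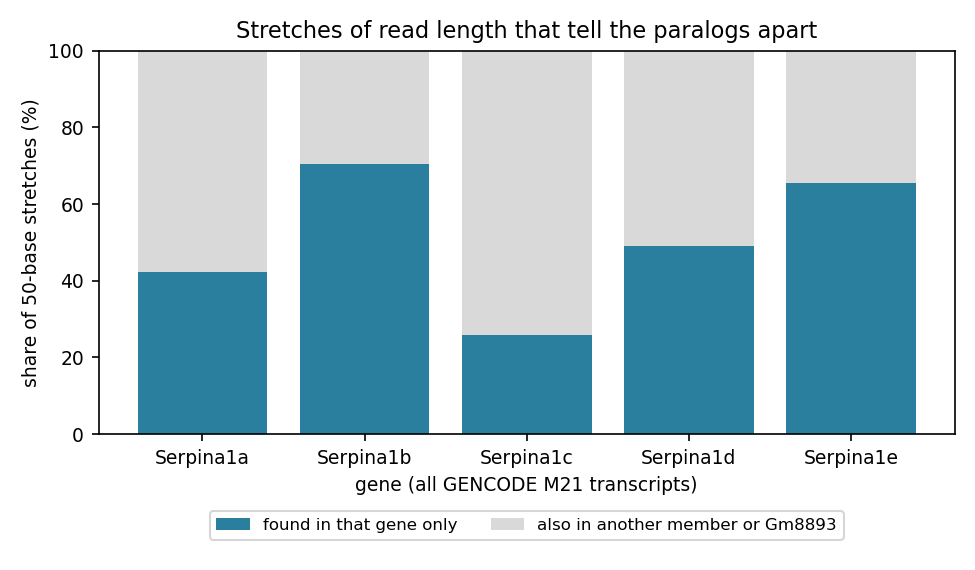
Bars give, for each member (x axis), the share in percent of its 50-base stretches that occur in that gene only (dark) or also in another member or in Gm8893 (light). *Serpina1b* and *Serpina1e* stand at 70.5% and 65.4%, and *Serpina1c* is lowest at 25.8%.

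*Serpina1* was expressed at a low level in the adenomas of both models, most of it from *Serpina1e* and *Serpina1b*. In *ApcMin* adenomas, the summed *Serpina1* level was 3.90 times that in *Apc1322T* adenomas, and the level of *Serpina1e* 7.39 times. The sum amounted to 16, 24 and 34 reads in *Apc1322T* replicates 1, 2 and 3, and to 155, 129 and 99 reads in *ApcMin* replicates 1, 2 and 3. All 3 *ApcMin* libraries lay above all *Apc1322T* libraries. In CPM normalised by TMM, the sum was 1.07 ± 0.455 in *Apc1322T* and 4.18 ± 0.980 in *ApcMin* adenomas (SD, n = 3 each), with a log2 fold change of 1.96 ± 0.40 (SE, from edgeR's model of all genes). Averaged over all libraries the sum stood at 2.62 CPM, where the median of the 16536 genes tested was 19.1 CPM, and 79.4% of these genes had a higher mean.

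**Figure D2:**
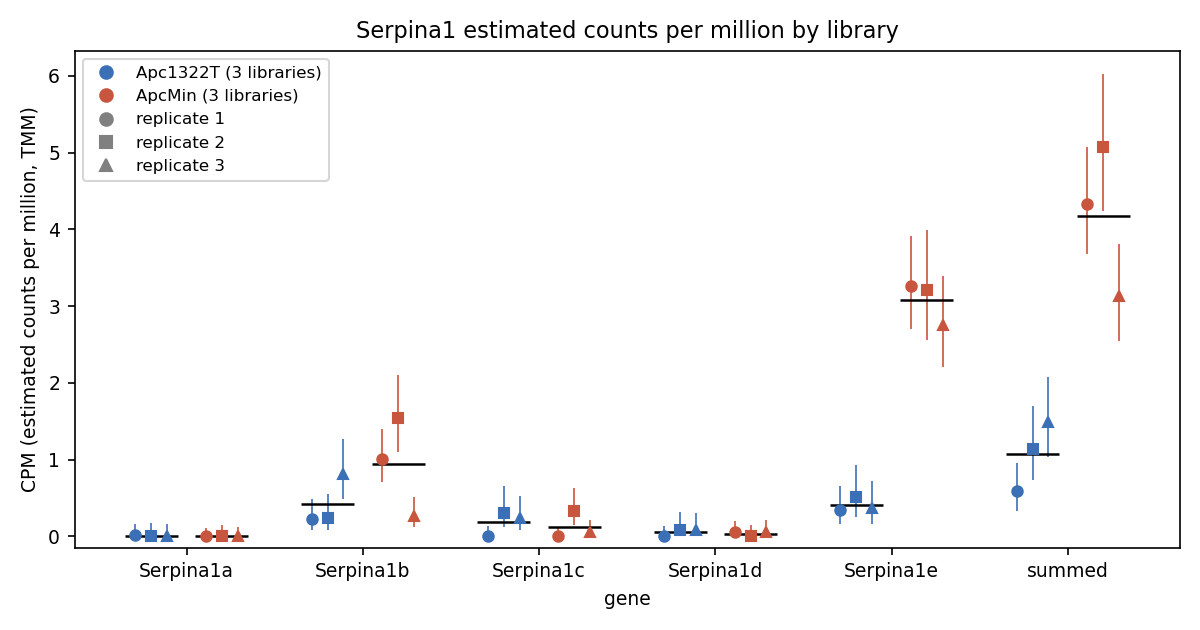
Points give the CPM (y axis, linear) of each member and of their sum (x axis) in each library, with exact 95% Poisson intervals that cover counting error only, and black lines the means of 3 libraries. The 3 *ApcMin* libraries of *Serpina1e* sit between 2.76 and 3.26 CPM and those of *Apc1322T* between 0.348 and 0.514 CPM, while the groups overlap for *Serpina1b*.

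The difference between the genotypes was largest in *Serpina1e*, the member with TTG at codon 377. Its estimated counts were 9.50, 10.8 and 8.51 in *Apc1322T* replicates 1, 2 and 3, and 117, 81.7 and 87.2 in *ApcMin* replicates 1, 2 and 3. These correspond to 0.348, 0.514 and 0.373 CPM in *Apc1322T* and to 3.26, 3.21 and 2.76 CPM in *ApcMin* adenomas. The libraries of each genotype lay close together, and the genotypes did not overlap. The means were 0.412 ± 0.0896 and 3.08 ± 0.279 CPM (SD, n = 3 each), and the log2 fold change was 2.89 ± 0.30 (SE). Among the genes tested, 49 had a larger log2 fold change. *Serpina1e* was 1 of 2 members that passed the filter on low counts and the only 1 of these without overlap, where 11.0% of all genes tested were higher in every *ApcMin* library. As the members were chosen from this comparison, nothing is read from that count or from the rank by log2 fold change.

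*Serpina1b*, which shares codon 377 with *Serpina1a*, varied within both models. It had 6.16, 5.04 and 18.4 estimated counts in *Apc1322T* replicates 1, 2 and 3, and 36.3, 39.1 and 8.39 in *ApcMin* replicates 1, 2 and 3. Replicate 3 departed from the others in each genotype, upwards in *Apc1322T* and downwards in *ApcMin*, and the groups overlapped. The means were 0.424 ± 0.331 and 0.938 ± 0.639 CPM (SD, n = 3 each), and the log2 fold change was 1.15 ± 0.79 (SE). This value depended on single libraries, being 1.99 without *Apc1322T* replicate 3 and 0.61 without *ApcMin* replicate 2.

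The remaining members were near the limit of detection and did not pass the filter on low counts. *Serpina1c* had 0, 6.46 and 5.34 estimated counts in *Apc1322T* replicates 1, 2 and 3, and 0, 8.28 and 1.75 in *ApcMin* replicates 1, 2 and 3. It thus exceeded 3 counts in 3 libraries, and the groups overlapped. *Serpina1d* reached at most 1.88 counts and *Serpina1a* at most 0.343 counts, in *Apc1322T* replicate 1. Both stayed under 3 counts in all 6 libraries, so that no fold change is given, and an absence of their transcripts cannot be told from a low level at this depth. Since *Serpina1c* and *Serpina1a* share most with other members, small counts of these genes may also depend on how shared reads were divided.

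The members also differed in how much of the cluster's RNA they contributed. *Serpina1e* took 59.4%, 45.1% and 25.04% of the summed counts in *Apc1322T* replicates 1, 2 and 3, and 75.4%, 63.3% and 88.1% in *ApcMin* replicates 1, 2 and 3. The share of *Serpina1b* ranged between 20.99% and 54.2% in *Apc1322T* and between 8.47% and 30.3% in *ApcMin* adenomas. In *Apc1322T* replicate 3, *Serpina1b* had more counts than *Serpina1e*, with a ratio of *Serpina1e* to *Serpina1b* of 0.462; in the other libraries this ratio lay between 1.54 and 10.4, the highest being *ApcMin* replicate 3. Without *Serpina1e*, the other members together reached 0.239, 0.626 and 1.12 CPM in *Apc1322T* replicates 1, 2 and 3, and 1.07, 1.86 and 0.374 CPM in *ApcMin* replicates 1, 2 and 3. These values overlapped between the genotypes, in contrast to those of *Serpina1e*. Per kb of transcript, the mean level over all libraries was highest for *Serpina1e* (1.22 CPM per kb), then *Serpina1b* (0.519), *Serpina1c* (0.113), *Serpina1d* (0.0313) and *Serpina1a* (0.00179). The ranges of *Serpina1e* (0.243 to 2.27 CPM per kb) and *Serpina1b* (0.172 to 1.17) overlapped across libraries, as did those of *Serpina1b* and *Serpina1c* (0 to 0.239), and *Serpina1d* and *Serpina1a* were both within the detection limit.

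**Figure D3:**
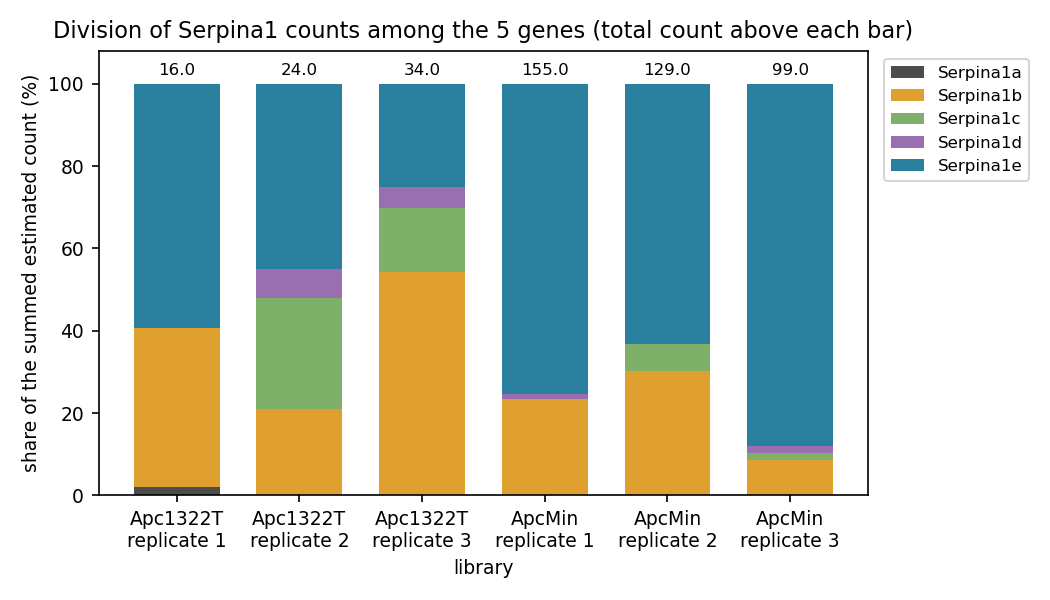
Each bar is a library (x axis) and its segments give the share in percent (y axis) of the summed *Serpina1* estimated counts credited to each member, with the summed count above the bar. *Serpina1e* is the largest segment in 5 libraries and *Serpina1b* in *Apc1322T* replicate 3, and the shares in *Apc1322T* rest on sums of 16 to 34 reads.

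To set these values against the rest of the transcriptome, the genotypes were compared across all 16536 genes tested. With edgeR's quasi-likelihood test, 0 genes (0%) had an adjusted p under 0.01 and 1 gene (0.00605%), the basal keratin gene *Krt14*, an adjusted p under 0.05, whereas 2495 genes (15.1%) had an unadjusted p under 0.05. DESeq2 called 194 of 17503 genes (1.11%) at an adjusted p under 0.01, 0.714% higher and 0.394% lower in *ApcMin* adenomas. Groups of genes related to antitrypsin are therefore described by the number of their tested genes with an unadjusted edgeR p under 0.05, for which the background was 7.49% of genes higher and 7.60% lower in *ApcMin* adenomas. The median log2 fold change of all genes tested was 0.02. When single libraries were left out, the number of such genes stayed between 7 and 11 for the folding and export list (9 with all libraries) and between 3 and 4 for the plasma protein list (4 with all). It moved more for the other lists, for example between 1 and 8 for promoter factors (5 with all), between 3 and 8 for serpins outside clade A (5) and for other proteases and inhibitors (6), between 1 and 5 for Paneth cell markers (2) and between 2 and 4 for goblet cell markers (4).

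Of the 20 other clade A serpins of chromosome 12, 4 passed the filter, and 3 had 0 counts in all libraries. The log2 fold change was above 0 in 3 of the 4 (median 0.75), and at an unadjusted edgeR p under 0.05 there was 1 higher and 1 lower gene; without *ApcMin* replicate 1 there were 0. The most abundant was *Serpina3n*, an acute phase inhibitor of leukocyte proteases, with 865, 287 and 310 CPM in *Apc1322T* replicates 1, 2 and 3 and 113, 117 and 236 CPM in *ApcMin* replicates 1, 2 and 3. Its *ApcMin* libraries were all lower than its *Apc1322T* libraries, as were those of 9.96% of all genes tested, with a log2 fold change of -1.65 ± 0.53 (SE; edgeR, adjusted p = 0.288). *Serpina3g*, an interferon-inducible inhibitor of cysteine cathepsins, had 6.20, 3.33 and 4.55 CPM in *Apc1322T* and 10.9, 4.80 and 11.8 CPM in *ApcMin* replicates 1, 2 and 3. Its groups overlapped (log2 fold change 0.96 ± 0.39, SE; edgeR, adjusted p = 0.323). *Serpina3f* (1.68 ± 0.83) and *Serpina9* (0.54 ± 0.87) also overlapped, with edgeR adjusted p of 0.379 and 0.777. The *Serpina3* genes are themselves close paralogs, so that their counts too depend on the division of shared reads. Of the 15 non-serpin genes beside the cluster, 9 were tested and 0 had an edgeR p under 0.05 or were called by DESeq2. Among them, *Dicer1*, the ribonuclease of microRNA processing, had a log2 fold change of 0.05 ± 0.08 and the RNA helicase gene *Ddx24* of -0.05 ± 0.08 (SE). The most abundant, the interferon-inducible *Ifi27l2b*, had -0.89 ± 0.48 (edgeR, adjusted p = 0.410).

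**Figure D4:**
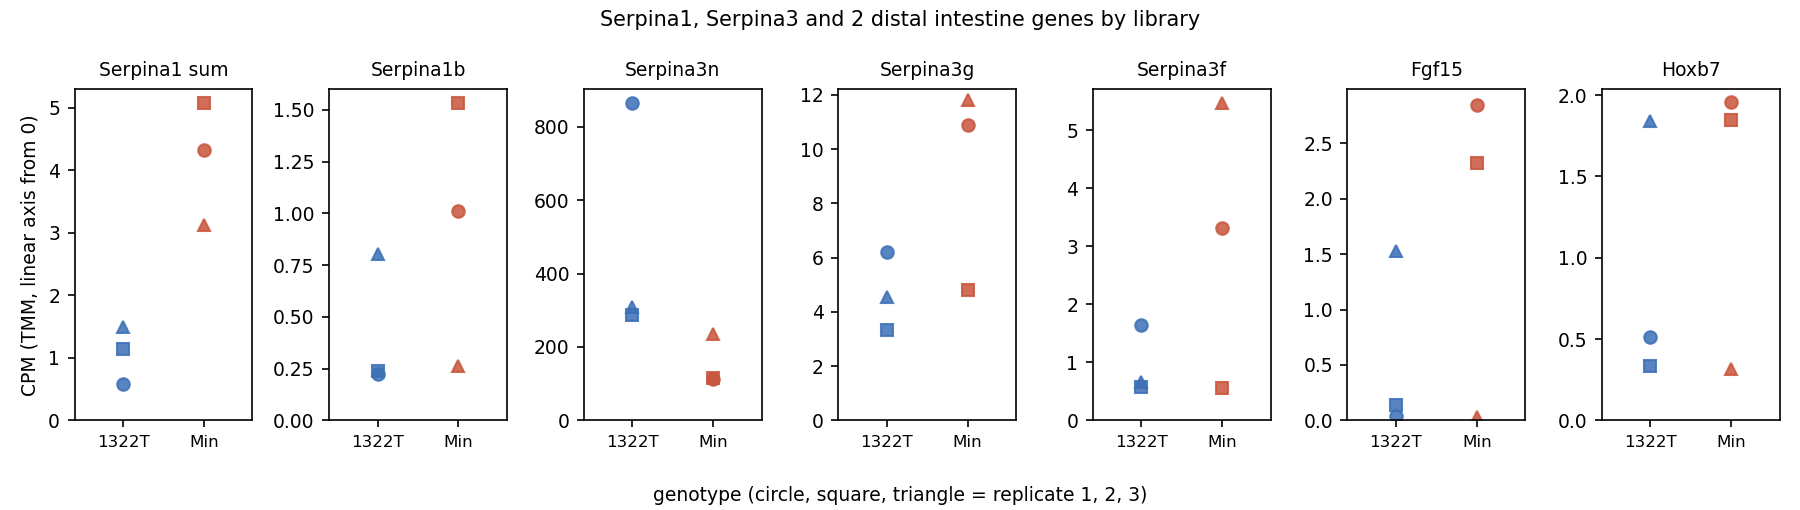
CPM (y axes, linear from 0, each with its own scale) in the *Apc1322T* (left) and *ApcMin* (right) libraries, with a symbol for each replicate number. The *Serpina1* sum is higher and *Serpina3n* lower in every *ApcMin* library, and *Serpina1b*, *Fgf15* and *Hoxb7* all have *ApcMin* replicate 3 among their lower libraries and *Apc1322T* replicate 3 apart from the other *Apc1322T* libraries. *Fgf15* and *Hoxb7* were picked out of 12 distal genes after the values were seen.

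Serpins outside clade A included 18 tested genes of 26, with a median log2 fold change of 0.54; 3 were higher and 2 lower in *ApcMin* adenomas at an edgeR p under 0.05. The most abundant were *Serpinb1a*, an intracellular inhibitor of neutrophil proteases (-0.46 ± 0.21), *Serpinb6a* (-0.43 ± 0.18) and *Serpine2*, an inhibitor of thrombin and plasminogen activators (0.74 ± 0.74), given as log2 fold changes with SE. All 3 had adjusted p of at least 0.331 in edgeR. *Serpine2* had 93.5, 50.3 and 64.6 CPM in *Apc1322T* and 257, 50.8 and 40.1 CPM in *ApcMin* replicates 1, 2 and 3. Its higher mean in *ApcMin* thus rested on replicate 1. Of the tested genes of this list, 4 were higher and 2 lower in every *ApcMin* library, as were 11.0% and 9.96% of all genes tested. *Serping1*, the inhibitor of complement C1, was among the higher and is named after its values were seen. Its log2 fold change was 0.98 ± 0.31 (SE, adjusted p = 0.287 in edgeR).

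Of the neutrophil proteases that antitrypsin is best known to inhibit, *Elane*, which encodes neutrophil elastase, and *Ctsg* had 0 counts in each library, which allows up to 0.143 CPM, and *Prtn3* at most 12 counts. Of 13 neutrophil genes, 7 were tested and 0 had an edgeR p under 0.05 or a DESeq2 call. Their most abundant members were *Ltf* (log2 fold change -0.05 ± 0.20), *S100a9* (1.38 ± 1.15) and *S100a8* (1.10 ± 1.15), the latter a pair that forms calprotectin. *S100a9* had 358, 52 and 93 counts in *Apc1322T* and 1553, 64 and 173 in *ApcMin* replicates 1, 2 and 3, so that its mean rested on *ApcMin* replicate 1. Of 22 pancreatic genes, 4 were tested, and *Cela1*, an elastase that is also made outside the pancreas and had between 1652 and 5683 counts, overlapped between the genotypes (0.30 ± 0.38), as did *Clps*, which encodes colipase (0.07 ± 0.27). *Ctrb1*, for chymotrypsinogen, was the 1 pancreatic gene with an edgeR p under 0.05, with most of its counts in *ApcMin* replicate 1. Among 24 other serine proteases and epithelial inhibitors, all tested, 1 was higher and 5 were lower at an edgeR p under 0.05. These included the membrane protease matriptase, encoded by *St14* (-0.41 ± 0.10, SE), and its inhibitor *Spint2* (-0.35 ± 0.11), whose adjusted p in edgeR were 0.257 and 0.286. *Spink4*, a goblet cell trypsin inhibitor, had -0.16 ± 0.25.

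Whether *Serpina1* moved with other plasma protein genes of the liver was examined next. Of 26 such genes, 12 were tested, with a median log2 fold change of -0.27; 1 was higher and 3 were lower in *ApcMin* adenomas at an edgeR p under 0.05. *Alb*, which encodes albumin, was present at between 429 and 813 counts and did not separate the genotypes (-0.04 ± 0.30, SE). *Ttr*, for transthyretin, was among the lower (-1.03 ± 0.42; adjusted p = 0.327 in edgeR), and *Trf*, for transferrin, had -0.71 ± 0.29. Defining hepatocyte genes such as *Fgb* had 0 counts in each library and *Fga* at most 5. The summed level of the list was between 367 and 620 CPM in *Apc1322T* and between 243 and 343 CPM in *ApcMin* adenomas, of which *Trf* made up between 66.2% and 83.3%. Without *Trf* it was 116.9, 88.1 and 78.3 CPM in *Apc1322T* and 57.2, 82.1 and 78.0 CPM in *ApcMin* replicates 1, 2 and 3, and the groups overlapped. Acute phase and IL-6 pathway genes were divided: 12 of 19 tested had log2 fold changes above 0 and 7 below, with 2 higher and 0 lower at an edgeR p under 0.05. Their most abundant members, *Reg3b* (-0.98 ± 0.56), *Reg3g* (-1.02 ± 0.50), both antimicrobial lectins, and the acute phase glycoprotein gene *Lrg1* (-0.95 ± 0.47), had edgeR adjusted p of at least 0.375.

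Transcription of *Serpina1* in the liver is known to involve the nuclear receptor HNF4α and FOXA proteins. All 5 members matched an entry of the RefSeq promoter table (GRCm38.p6), which covers 250 bases before to 50 bases after the annotated start. Between pairs these promoters were from 91.7% to 98.4% identical. CCAAT, the sequence of the CCAAT box, was looked for after the promoters were read and was found on either strand in 5 of 5 members and in 37.4% of 32851 promoters. A stretch of 84 bases around this box is shown because it shows how little the members differ there, with capitals at the 11 positions that vary between members. All are written 5′ to 3′ along the minus strand.
Serpina1a: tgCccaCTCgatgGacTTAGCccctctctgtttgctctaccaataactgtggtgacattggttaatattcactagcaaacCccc
Serpina1b: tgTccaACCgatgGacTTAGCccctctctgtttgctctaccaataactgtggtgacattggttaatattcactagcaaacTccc
Serpina1c: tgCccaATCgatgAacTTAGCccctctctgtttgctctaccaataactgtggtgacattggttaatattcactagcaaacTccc
Serpina1d: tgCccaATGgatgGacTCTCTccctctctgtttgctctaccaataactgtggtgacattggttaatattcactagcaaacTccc
Serpina1e: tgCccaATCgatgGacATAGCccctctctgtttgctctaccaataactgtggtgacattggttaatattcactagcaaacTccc
They lie at chr12:103863617-103863700 (*Serpina1a*), chr12:103738192-103738275 (*Serpina1b*), chr12:103904954-103905037 (*Serpina1c*), chr12:103773626-103773709 (*Serpina1d*) and chr12:103956952-103957035 (*Serpina1e*). The letters ccaataa begin between 37 and 48 bases before the RefSeq start of *Serpina1a*, *Serpina1b*, *Serpina1c* and *Serpina1d*, and 99 bases before that of *Serpina1e*. The stretches of *Serpina1b* and *Serpina1e* lie inside their GENCODE intervals given above, so these distances hold for the RefSeq starts only. The letters TATAAA (13.6% of promoters), TTGCGCAA, a palindrome bound by C/EBP factors (0.183%), and CTTTGAA, a form of the TCF site (5.14%), were found on neither strand of any member. This says only that these letters are not in these windows. TTAAATA, which resembles a TATA box and was looked for after the promoters were read, was found in 4 members, all but *Serpina1d*, and in 4.51% of promoters.

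Of 21 genes for factors of such promoters or of the intestine, 20 were tested, with a median log2 fold change of -0.16; 1 was higher and 4 were lower in *ApcMin* adenomas at an edgeR p under 0.05. *Hnf4a*, the most abundant, was among the lower (-0.53 ± 0.20, SE; adjusted p = 0.311 in edgeR), while *Onecut2* (-0.03 ± 0.13) and *Klf5* (-0.16 ± 0.10) had adjusted p of at least 0.473. *Foxa2*, named after its values were seen, was the higher gene, with 102, 91 and 62 counts in *Apc1322T* and 206, 164 and 405 in *ApcMin* replicates 1, 2 and 3 (1.21 ± 0.36, SE). Its libraries did not overlap, where 11.0% of all genes tested were higher in every *ApcMin* library. The other FOXA genes, also named after their values were seen, were more abundant and overlapped between the genotypes. Their log2 fold changes were 0.02 ± 0.13 (*Foxa1*, mean 81.4 CPM) and -0.25 ± 0.13 (*Foxa3*, 54.3 CPM), against a mean of 5.96 CPM for *Foxa2*. The part of these factors in the level of *Serpina1* was not tested.

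Antitrypsin is folded in the endoplasmic reticulum and exported by cargo receptors and COPII vesicles. The 23 genes of this machinery were all tested, and 22 had log2 fold changes below 0, with a median of -0.24. At an edgeR p under 0.05, 0 were higher and 9 lower, and DESeq2 called 2 of them lower at an adjusted p under 0.01. These were *Sec24d*, a COPII coat subunit (-0.72 ± 0.11, SE; adjusted p = 0.257 in edgeR and 1.15e-04 in DESeq2), and the cargo receptor gene *Surf4* (-0.48 ± 0.10; adjusted p = 0.257 and 0.00131). *Sec24d* had 141, 176 and 178 CPM in *Apc1322T* and 94.1, 105 and 101 CPM in *ApcMin* replicates 1, 2 and 3. The abundant chaperone genes *Calr* (-0.27 ± 0.14), *Hsp90b1* (-0.26 ± 0.13) and *Pdia3* (-0.18 ± 0.11) had edgeR adjusted p of at least 0.385. 

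**Figure D5:**
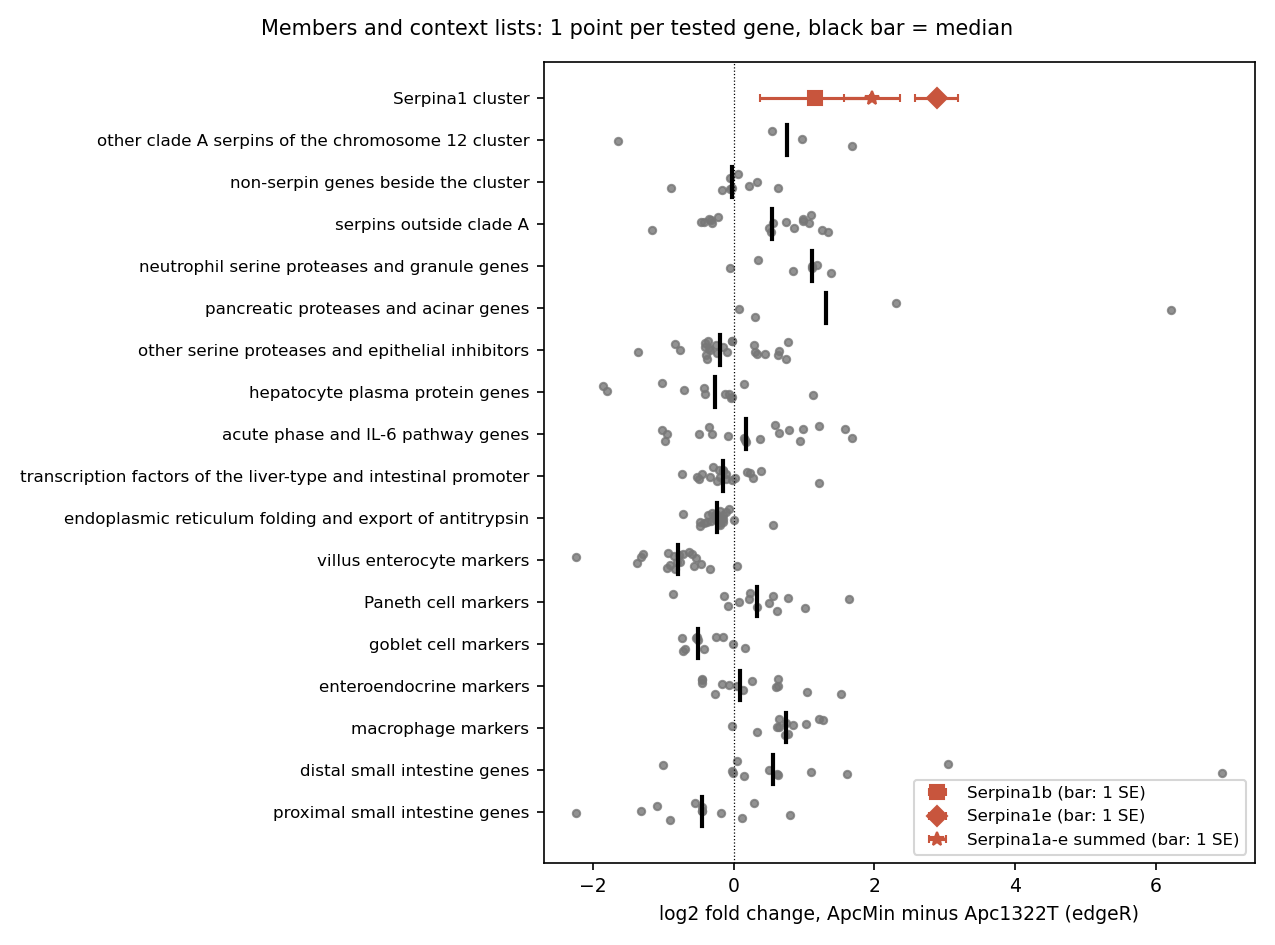
Each point is a tested gene of a list (y axis) at its log2 fold change, *ApcMin* minus *Apc1322T* (x axis), with the list's median as a black bar, and the top row holds *Serpina1b*, *Serpina1e* and the *Serpina1* sum with 1 SE. The sum lies at 1.96 and *Serpina1e* at 2.89, and the list medians lie between -0.79 (villus enterocyte markers) and 1.30 (pancreatic genes, 4 tested). As the cluster was taken up for its difference in this comparison, nothing is read from its place beside the lists.

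The cell types that could contribute *Serpina1* RNA, and the position along the intestine, varied between the libraries as well. In such tissue, fewer cells of a type cannot be told from less RNA per cell. Of 20 villus enterocyte markers, all tested, 19 had log2 fold changes below 0 (median -0.79), with 0 higher and 3 lower at an edgeR p under 0.05, among them *Krt20* (-0.81 ± 0.27). The number with p under 0.05 was 9 without *Apc1322T* replicate 1, 7 without *ApcMin* replicate 2, and 0 without *Apc1322T* replicate 2, *Apc1322T* replicate 3 or *ApcMin* replicate 1. *Apoa4* (-0.90 ± 0.41) and *Apoa1* (-0.78 ± 0.43), which encode apolipoproteins of absorbed fat, had edgeR adjusted p of at least 0.354. The summed level of these markers ranged from 21979 to 41052 CPM in *Apc1322T* and from 15060 to 28086 CPM in *ApcMin* adenomas. Paneth cell markers had a median of 0.33, with 10 of 13 above 0. At an unadjusted edgeR p under 0.05, 1 was higher, the lysozyme gene *Lyz1* (0.61 ± 0.26, SE), and 1 lower, *Habp2* (-0.87 ± 0.21; adjusted p = 0.262 in edgeR and 0.0094 in DESeq2), and the summed level of the list was between 2174 and 3382 CPM in *Apc1322T* and between 3262 and 3647 CPM in *ApcMin* adenomas. *Itln1* (-0.13 ± 0.35) and *Pla2g2a* (-0.09 ± 0.28) overlapped. Of 11 goblet cell markers, 10 were below 0 and 4 lower at an edgeR p under 0.05. *Agr2*, a goblet cell disulphide isomerase, was called by DESeq2 (-0.72 ± 0.15; adjusted p = 0.257 in edgeR and 0.0020 in DESeq2), *Fcgbp* had -0.74 ± 0.21, *Zg16* -0.69 ± 0.29 and *Muc2* -0.51 ± 0.33. Enteroendocrine markers had a median of 0.08, with 3 of 14 higher and 0 lower at an edgeR p under 0.05. The granin genes *Chga* (-0.26 ± 0.19) and *Chgb* (-0.07 ± 0.25) and the hormone gene *Gip* (-0.17 ± 0.25), their most abundant members, were not among these.

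Macrophage markers were above 0 in 11 of 12 cases (median 0.74), with 7 higher at an edgeR p under 0.05. Their summed level was 231, 197 and 218 CPM in *Apc1322T* and 615, 209 and 279 CPM in *ApcMin* replicates 1, 2 and 3. The complement gene *C1qa* was at 0.73 ± 0.26 (SE), *Lyz2* at 1.21 ± 0.62 and *Cd14* at -0.03 ± 0.48. The number with p under 0.05 was 1 without *ApcMin* replicate 1, 1 without *Apc1322T* replicate 2, 0 without *Apc1322T* replicate 3 and 3 without *ApcMin* replicate 3. The part of these cells in the level of *Serpina1* was not tested. Without *ApcMin* replicate 1, which also held the pancreatic RNA, the log2 fold change of the sum was 1.94 ± 0.46 (SE).

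Genes of the distal small intestine were uneven among the libraries. Of 12, all tested, 9 had log2 fold changes above 0 (median 0.56), with 3 higher and 1 lower at an edgeR p under 0.05. *Fabp6*, the ileal bile acid binding protein, had 13, 13 and 14 counts in *Apc1322T* and 4560, 2105 and 31 in *ApcMin* replicates 1, 2 and 3 (log2 fold change 6.95 ± 1.72; adjusted p = 0.273 in edgeR and 2.48e-04 in DESeq2). The mucin gene *Muc13* was lower (-1.01 ± 0.26; adjusted p = 0.273 and 0.0076), and *Slc51a* (-0.02 ± 0.46) and *Mep1a* (1.09 ± 1.06) overlapped. Among the *ApcMin* libraries, *Fabp6* was lower in replicate 3 than in replicates 1 and 2, as was *Serpina1b*, whereas *Serpina1e* was at a similar level in all 3. Like *Serpina1e*, *Fabp6* had more counts in every *ApcMin* library than in any *Apc1322T* library. Unlike *Serpina1b*, it was even among the *Apc1322T* libraries. *Fgf15*, an ileal hormone, and the posterior homeobox gene *Hoxb7* are shown because, after the values were seen, they were like *Serpina1b* also highest among the *Apc1322T* libraries in replicate 3. *Fgf15* had 1, 3 and 35 counts in *Apc1322T* and 102, 59 and 1 in *ApcMin* replicates 1, 2 and 3, and *Hoxb7* had 14, 7 and 42 counts and 70, 47 and 10 counts. The summed level of the distal list did not share this order, but a sum follows the most abundant genes and does not speak for each gene. Its summed level was 1291, 2324 and 2212 CPM in *Apc1322T* and 1566, 1248 and 846 CPM in *ApcMin* replicates 1, 2 and 3. The part of intestinal position in the level of *Serpina1b* or *Serpina1e* was not tested. Of the 12 proximal genes, 9 were below 0 (median -0.45), with *Fabp1*, a fatty acid binding protein, at -1.32 ± 0.45 and the ferric reductase gene *Cybrd1* at 0.29 ± 1.05.

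Finally, the genes whose log2 CPM over the 6 libraries was most like that of the *Serpina1* sum were sought. These were *Csdc2*, an RNA-binding protein (Pearson's r = 0.993), the zinc finger gene *Zfp692* (0.990), the metalloprotease gene *Adamts10* (0.988), the collagen gene *Col27a1* (0.987) and *Cryab*, a small heat shock protein (0.984). Their log2 fold changes were smaller than that of the sum, from 0.40 ± 0.13 for *Zfp692* to 1.06 ± 0.22 for *Cryab* (SE). Of the genes tested, 153 had an r over 0.9. These coefficients describe 6 libraries that fall into 2 genotypes, and include the difference between the genotypes.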

How the data were processed

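RNA-seq was analysed for adenomas of 3 *Apc1322T/+* and 3 *ApcMin/+* samples, grouped by the labels. Per the labels and the study's methods, libraries were made with a directional kit, sequenced in 1 lane as single reads of 50 bases and quantified by the authors with Salmon against the mouse transcriptome (GRCm38.p6; the annotation release is not given in the sources used here). The authors deposited estimated counts per gene, neither normalised nor scaled for length. These were rounded to whole numbers. The *Serpina1* counts were summed before rounding for the sum, which replaced its 5 members in a separate fit.

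Symbols were matched to GENCODE M21 for 34582 of 34866 genes. After filterByExpr (minimum count 10, minimum total count 15), 16536 genes were normalised by TMM and tested between genotypes by quasi-likelihood with robust estimation (edgeR 4.0.16, R 4.3.3), with Benjamini-Hochberg adjustment over all genes and a threshold of 0.01. A positive log2 fold change denotes a higher level in *ApcMin*; its SE is the log2 fold change divided by the square root of F. For correlations, log2 CPM used a prior count of 2. With between 23132461 and 33518324 counts per library, intervals (exact Poisson, 95%) and the limit of 3 counts cover counting error only. Nothing states that libraries came from separate experiments, so p-values measure the spread between these samples. Groups did not overlap where all libraries of 1 genotype exceeded all of the other.

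The members and the 17 gene lists were chosen with earlier results of these data known. Named were the members, the 3 most abundant tested genes of each list, list genes with an adjusted p under 0.05 (edgeR) or 0.01 (DESeq2), all tested clade A serpins and the 5 genes most correlated with the sum; *Krt14*, *Ctrb1*, marker genes named for their absence and others so marked were chosen after their values were seen. Alternatives were DESeq2's size factors, upper quartile factors, DESeq2 1.42.0 (Wald test), no filter, a minimum count of 50, an adjusted p under 0.05, a block for the replicate number and leaving out each library. The procedures were tested on simulated counts. Changes were placed there only in genes more abundant than any member, so recovery at the level of *Serpina1* was not tested. Protein sequences were not used here. The values of some promoter factor genes are not reported here.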

Additional observations from a re-analysis of the deposited data

How the results depend on the processing

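The log2 fold changes of the *Serpina1* sum, *Serpina1e* and *Serpina1b* were above 0 under all 35 combinations of value and alternative. Each moved by less than 1 SD of the libraries within genotypes. Leaving out 1 of 3 libraries cannot move a mean much further than that, so this limit does not show stability. The cluster was taken up because *Serpina1e*, with 68.8% of the summed counts, differed between these same libraries. The sign for *Serpina1e* and for the sum was therefore largely set by that choice, and nothing is read from its constancy. The sum lay between 1.67 (without *Apc1322T* replicate 1) and 2.28 (without *Apc1322T* replicate 3), *Serpina1e* between 2.75 and 3.08, and *Serpina1b* between 0.61 and 1.99; *Serpina1b* was not fitted with a minimum count of 50. The number of genes called was less stable: 0 as reported, 194 with DESeq2, 1 without a filter on low counts (*Krt14*), 1 at an adjusted p under 0.05 (*Krt14*) and between 0 and 1 with each library left out, the latter being *Fabp6* without *ApcMin* replicate 3. At an adjusted p under 0.05, 205 genes passed without *Apc1322T* replicate 1. Of 204 list counts at an unadjusted p under 0.05, 126 stayed within 1.5 times and 78 moved further. Same-numbered libraries come from different mice, and their deviations correlated by -0.0139, 0.164 and -0.286, so the numbers do not pair them. With the replicate number as a block, 0 genes were called, 2113 instead of 2495 had an unadjusted p under 0.05, and the sum was at 2.01. Depth limits *Serpina1a*, *Serpina1c* and *Serpina1d*.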
